A study of Mus musculus with 6 samples.

Results

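The regions described here were stretches of chromatin marked by H3K4me1 that lay at the start of a long noncoding gene and far from any protein-coding start. Peaks of 3 whisker pad lists were merged by an overlap of at least 1 bp into 19251 regions, of which 13323 lay on chromosomes 1 to 19 and had a peak in at least 2 lists. Of these, 589 (4.42%) came within 1 kb of a start of a GENCODE vM21 lincRNA or antisense gene while lying 5 kb or more from every protein-coding transcript start. They are called lone noncoding start regions. The other 9136 regions that lay 5 kb or more from protein-coding starts are called other distal regions, and 2777 regions within 1 kb of a protein-coding start are called coding start regions. The rule used positions and the number of lists, the latter alike for all 3 classes, and no signal level directly. It is still tied to signal through width, since a wider region can reach more starts and total signal is summed over length. The share of regions that met it was 4.19% in the shortest and 8.76% in the longest of 4 length groups, as given below.

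The mark was profiled with CUT&Tag, where a transposase is brought to the chromatin by an antibody, in mouse whisker pads at embryonic day 12 (E12). The pads were wild-type, of strain B6/J2, and were dissociated into single cells, so each list is an average over every cell type of the pad, in which fewer marked cells and less of the mark per cell cannot be told apart. The series holds 6 samples, of which 3 were made with the H3K4me1 antibody and are numbered here as pads 1, 2 and 3 are in their titles, and 3 were made with control IgG and were not analysed here. The lists held 16788, 12969 and 13998 peaks in replicates 1, 2 and 3, and lone noncoding start regions held 5.08, 5.40 and 5.05% of their listed signal.

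The source name of replicates 2 and 3 reads adult kidney, whereas their titles read whisker pad. A peak lay in or within 5 kb of 23, 22 and 22 of 24 facial mesenchyme markers in replicates 1, 2 and 3, and of 6, 5 and 3 of 24 adult kidney markers. For surface ectoderm the counts were 10, 10 and 6 of 14 markers. Blood cell markers had a peak in 0 of 12 in every replicate, endothelial markers in 6, 4 and 5 of 12, and muscle and nerve markers in 7, 8 and 4 of 14. The same share over all genes was not counted, so the marker counts have no base rate and do not settle which label is right. Replicate 3 also stood apart in its signal by GC content, as given below.

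Monomethylation of histone H3 at lysine 4 marks enhancers, both active and poised, and the flanks of promoters. Active promoters usually carry the trimethylated form at the start itself. Long noncoding RNAs are often transcribed from enhancers or next to genes of developmental regulators. A lincRNA gene lies between protein-coding genes, and an antisense gene overlaps a protein-coding gene on the opposite strand or lies near it. Most are known only as transcript models, without a tested function.

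Sequences are shown at 7 of the starts whose regions are described below. Whether signal level moves with these sequences was not tested. The window of 2010110G14Rik was chosen after its values were seen. Each runs 5′ to 3′ on the strand of the noncoding gene, from 250 bases before the start to 50 bases from it, in the GRCm38 reference. Peaks of all 3 replicates covered each start. The start shown is the first one along the gene with such peaks, which for H19, Pvt1 and Gm20052 is not the start nearest to the middle of the region, used for distances below. Capitals mark CpG dinucleotides, since CpG content is the sequence feature examined in which these starts differed most from protein-coding ones.
H19 (chr7:142578094-142578393, minus strand): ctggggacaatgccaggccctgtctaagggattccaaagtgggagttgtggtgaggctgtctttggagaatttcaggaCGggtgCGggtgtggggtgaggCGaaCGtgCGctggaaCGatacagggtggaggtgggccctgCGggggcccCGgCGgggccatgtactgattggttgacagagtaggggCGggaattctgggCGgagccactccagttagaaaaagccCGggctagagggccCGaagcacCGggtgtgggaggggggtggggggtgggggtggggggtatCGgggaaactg
Pvt1 (chr15:62037736-62038035, plus strand): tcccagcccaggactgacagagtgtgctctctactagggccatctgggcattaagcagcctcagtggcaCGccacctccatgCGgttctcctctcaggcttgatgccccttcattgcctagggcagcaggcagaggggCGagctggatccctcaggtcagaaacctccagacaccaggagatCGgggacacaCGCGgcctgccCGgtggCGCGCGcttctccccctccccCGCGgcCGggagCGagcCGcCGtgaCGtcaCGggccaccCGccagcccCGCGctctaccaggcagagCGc
Dnm3os (chr1:162217373-162217672, plus strand): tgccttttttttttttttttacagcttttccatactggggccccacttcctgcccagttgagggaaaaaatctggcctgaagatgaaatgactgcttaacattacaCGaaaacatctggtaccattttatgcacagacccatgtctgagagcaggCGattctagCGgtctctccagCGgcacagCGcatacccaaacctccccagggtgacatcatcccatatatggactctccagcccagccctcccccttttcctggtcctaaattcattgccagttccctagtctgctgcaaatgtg
Gm20052 (chr5:37893522-37893821, plus strand): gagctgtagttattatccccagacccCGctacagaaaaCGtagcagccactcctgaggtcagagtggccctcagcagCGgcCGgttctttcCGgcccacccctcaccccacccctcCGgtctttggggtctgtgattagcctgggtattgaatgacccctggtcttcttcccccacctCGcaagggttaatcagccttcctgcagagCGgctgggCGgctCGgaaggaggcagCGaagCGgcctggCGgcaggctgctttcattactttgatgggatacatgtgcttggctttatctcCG
Gm11269 (chr4:82692555-82692854, plus strand): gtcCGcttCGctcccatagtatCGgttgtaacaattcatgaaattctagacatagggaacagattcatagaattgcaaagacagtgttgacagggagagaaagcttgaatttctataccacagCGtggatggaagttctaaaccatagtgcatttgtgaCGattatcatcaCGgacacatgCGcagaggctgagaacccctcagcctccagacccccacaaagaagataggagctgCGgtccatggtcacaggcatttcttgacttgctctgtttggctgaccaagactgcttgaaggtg
5031425F14Rik (chr2:166447201-166447500, plus strand): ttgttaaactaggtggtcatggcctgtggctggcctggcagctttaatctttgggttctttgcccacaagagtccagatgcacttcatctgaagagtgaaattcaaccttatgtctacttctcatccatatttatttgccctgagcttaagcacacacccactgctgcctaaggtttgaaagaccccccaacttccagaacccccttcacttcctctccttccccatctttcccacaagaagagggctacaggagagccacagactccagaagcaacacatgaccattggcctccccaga
2010110G14Rik (chr3:130937288-130937587, minus strand): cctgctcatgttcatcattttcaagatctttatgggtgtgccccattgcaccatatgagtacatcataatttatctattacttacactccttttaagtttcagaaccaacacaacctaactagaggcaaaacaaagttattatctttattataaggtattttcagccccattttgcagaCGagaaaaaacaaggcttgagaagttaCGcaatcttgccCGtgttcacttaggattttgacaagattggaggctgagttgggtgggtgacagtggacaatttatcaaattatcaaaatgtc

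The window of Pvt1 held 22 CpG dinucleotides and that of H19 held 15. That of 5031425F14Rik, whose region had the highest mean pileup among lone noncoding start regions, held 0. Over one window per lone noncoding start region, at the start nearest to its middle, 4.24% (25 of 589) were CpG-rich, which was taken as a GC content above 50% with an observed to expected CpG ratio above 0.6. The same held for 4.34% of 7379 lone starts of noncoding genes without such a region, and for 43.4% of 52065 protein-coding starts. The median GC content of the windows was 50%, against 47.3% at lone starts without a region and 56.3% at protein-coding starts. By this measure noncoding starts with a region and those without one were both poor in CpG.

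Short motifs were searched on both strands of the same windows. GGGCGG, the core of a GC box, was in 11.9% of the marked windows, 9.19% of lone starts without a region and 43.5% of protein-coding starts. TATAAA, the TATA box, was in 12.1, 16.7 and 11.3%, and CCAAT in 30.9, 37.5 and 35.6%. CTTTGAT or CTTTGAA, the core that TCF and LEF factors bind, was in 11.9, 11.2 and 7.47%. TAATTA, a homeodomain core, was in 6.62, 7.11 and 4.60%, and CANNTG, the E-box, in 81.2, 82.5 and 69.1%. Of the 7 printed windows, that of Gm20052 held the TCF and LEF core, 15 bases downstream of the start. The start base itself was repeat-masked in 8.83% of the marked windows, in 19.8% of lone starts without a region and in 8.42% of protein-coding starts. Repeats thus lay at fewer of the starts with a region than of those without one. Read mapping within repeats was not examined.

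The 589 regions held starts of 602 noncoding genes, of which 423 were lincRNA genes and 179 antisense genes. A single noncoding gene accounted for 563 regions, 23 regions held starts of 2 genes and 3 held starts of 3. With the start nearest to the middle of each region taken, 425 starts (72.2%) were intergenic, 146 (24.8%) lay in an intron of a protein-coding gene and 18 (3.06%) in an exon of one. The places differed by type as the definitions of the types imply: 394 of 409 lincRNA starts were intergenic, and 136 of 180 antisense starts were intronic. The nearest protein-coding start was 5 to 10 kb away for 41 regions, 10 to 50 kb for 211, 50 to 100 kb for 130, 100 to 500 kb for 199 and farther for 8. The median distance was 62584 bp, against 50450 bp for other distal regions.

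At the 5 kb limit, the closest regions inside it were those of Gm15941, at 5014 bp from a protein-coding start, and Gm16559, at 5020 bp. Just outside it were the regions of AC132404.2, at 4616 bp, and Gm13441, at 4476 bp. By total signal Gm15941 stood at percentile 57.1, 57.5 and 43.3 and Gm16559 at 64.5, 57.6 and 80.1 in replicates 1, 2 and 3. A percentile is the share of the peaks of the same list whose total signal was at or below the peak in question. Outside the limit, Gm13441 stood at 47.3, 50.3 and 10.8, and AC132404.2 at 12.4 and 21 in replicates 1 and 2 with no peak in replicate 3.

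Few lone noncoding genes had a region, yet their starts lay near regions more often than other bases did. The lists hold only peaks called at a top fraction of 1%, so a gene without a region is not shown to lack H3K4me1. Of 6219 lincRNA and antisense genes with at least 1 start 5 kb or more from protein-coding starts, 602 (9.68%, 95% Wilson interval 8.97 to 10.4%) had a lone noncoding start region. Of 8401 such starts, 10.5% (9.81 to 11.1%) lay within 1 kb of a region 5 kb or more from protein-coding starts. The same distance covered 3.14% of all bases that lie as far from protein-coding starts. Inside the bodies of protein-coding genes the shares were 11.9% of starts and 4.70% of bases, and outside them 10.1% of starts and 2.18% of bases. The intervals cover counting error only, and neighbouring starts are not independent. The bases were not matched to the starts by repeat content or GC content. Of genes with a region 96.8% were spliced in the annotation, and of those without a region 95.5%.

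In replicates 1, 2 and 3, 10.3, 8.72 and 9.05% of the 4587 lone lincRNA genes had a peak within 1 kb of a start. Of the 1632 lone antisense genes the shares were 12.3, 11.6 and 10.3%. Antisense genes were thus ahead in each replicate, by a mean of 2.04 percentage points (exact sign-flip test over 3 replicates, two-sided, p = 0.25, the smallest that 3 replicates allow). Noncoding genes closer to protein-coding starts had larger shares, at 17.4, 17.6 and 12.9% of the 930 antisense genes within 1 kb. Protein-coding genes, counted by any of their starts, had a peak at a start in 12.9, 12.6 and 9.09% of 20722 cases. The lone lincRNA genes were below the protein-coding genes in replicates 1 and 2 and close to them in replicate 3.

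**Figure D1:**
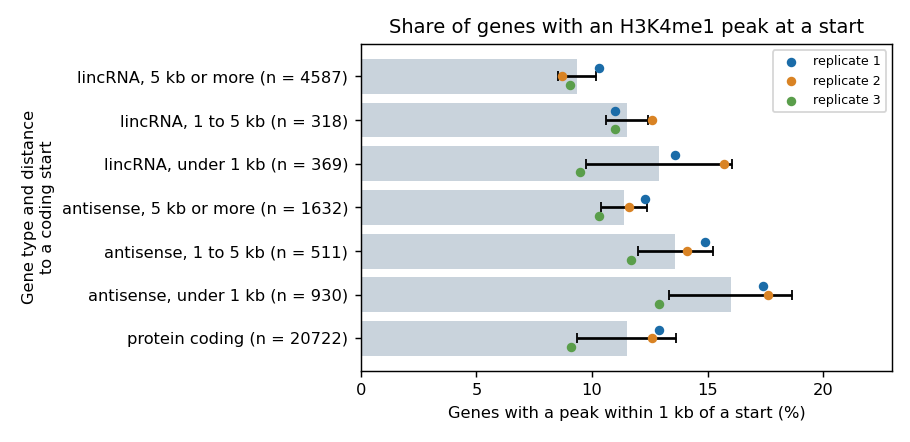
The horizontal axis gives the percent of genes with a peak within 1 kb of any start, and the vertical axis the gene type and the distance to the nearest protein-coding start. Bars are means of 3 replicates, black lines the SD, and colored points the replicates; the lone lincRNA genes had the lowest mean, 9.35%, and antisense genes within 1 kb of a protein-coding start the highest, 16%.

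Most lone noncoding start regions recurred in every replicate. A peak was found in all 3 replicates for 433 (73.5%, 95% Wilson interval 69.8 to 76.9%). Over all 13323 regions the share was 66.4%, and it was 67.1% among other distal regions and 63.2% among coding start regions. The other 156 regions lacked a peak in a single replicate, which was replicate 3 for 87, replicate 2 for 57 and replicate 1 for 12. The merged region met the rule as a whole, and peaks of all 3 replicates came within 1 kb of a start of the gene themselves in 367 regions, of 2 replicates in 175 and of a single replicate in 47. Regions in all 3 replicates had median percentiles of 76.3, 70.3 and 69.4, and those in 2 had 33.2, 25.2 and 31.2.

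By total signal, the sum of the fragment pileup over a peak, these regions were in the upper part of each list. Percentiles were taken over whole lists, which include peaks found in a single list, so the requirement of 2 lists can by itself raise a median. The median percentile was 66.8 in replicate 1, 62.7 in replicate 2 and 65.7 in replicate 3. Other distal regions had medians of 57.0, 49.8 and 57.4. Lone noncoding start regions were higher in 3 of 3 replicates, by a mean of 10.3 ± 2.35 percentile points (SD, n = 3; exact sign-flip test, two-sided, p = 0.25, the smallest possible). Against coding start regions, with medians of 62.9, 60.8 and 61.8, the mean difference was 3.24 ± 1.16 points (SD, n = 3; exact p = 0.25), and it was -0.383 points when a peak was required in all 3 replicates. By maximum signal it was 7.09 points and by total signal divided by length 8.32 points, so its size and direction depended on the measure and the rule. A percentile of at least 90 in every replicate was reached by 57 regions (9.68%), against 6.16% of all 13323 regions, 4.89% of other distal regions and 9.65% of coding start regions.

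Length moved with this difference. The median peak was 3597, 4208 and 4018 bp long in lone noncoding start regions and 3137, 3616 and 3489 bp in other distal regions. Within 4 groups of region length over both classes, the mean difference in percentile was 3.36, -1.21, 3.32 and 2.82 points from the shortest to the longest group. The share of regions that met the rule was 4.19, 5.43, 5.84 and 8.76% in the same groups. In single replicates the differences within these groups ran from -3.01 to 6.45 points. Total signal divided by peak length differed by 9.19, 10.3 and 2.25 points in replicates 1, 2 and 3 without regard to region length. The part of length in the difference was not tested further. By maximum signal, the highest pileup in a peak, the difference from other distal regions was 8.07, 9.21 and 2.21 points in replicates 1, 2 and 3. Within the 4 length groups its mean was 1.24, 1.27, 3.62 and 2.84 points.

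**Figure D2:**
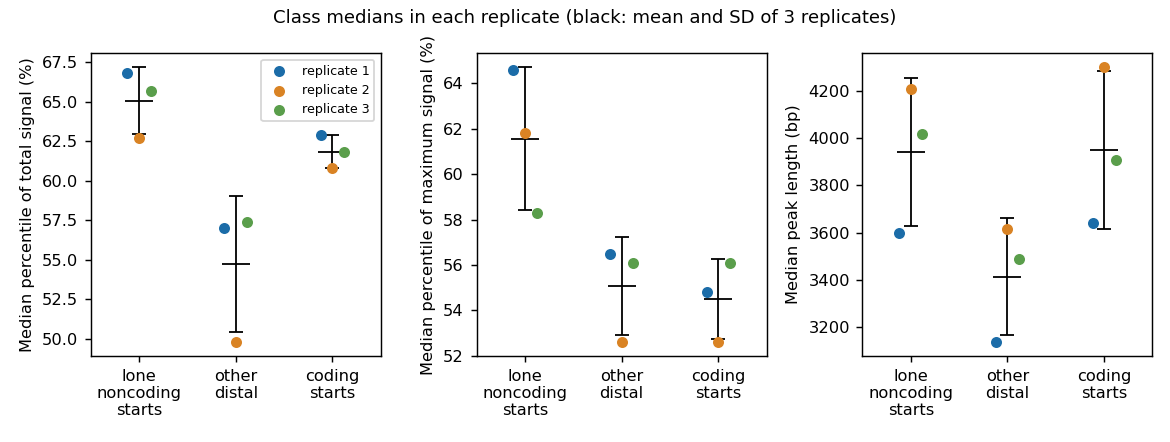
The panels give, for each class of region, the median percentile of total signal, the median percentile of maximum signal and the median peak length in bp, on axes that do not start at 0. Colored points are the 3 replicates and black marks their mean and SD; lone noncoding starts sit above other distal regions in every replicate for total signal (66.8, 62.7 and 65.7 against 57.0, 49.8 and 57.4).

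The highest pileup tended to sit closer to the start than at protein-coding genes. The noncoding start used was the one nearest to the middle of the region, and how far this choice shortens the distance was not tested. It was within 500 bp of the noncoding start in 26, 26.3 and 24.1% of regions with a peak in replicates 1, 2 and 3. In coding start regions the shares were 17.4, 19.4 and 12.4%, and the mean difference was 9.07 percentage points (exact sign-flip test over 3 replicates, two-sided, p = 0.25). The median distance was 1112, 1192 and 1238 bp at noncoding starts and 1662, 1576 and 1967 bp at protein-coding ones. The highest pileup lay downstream of the noncoding start in 54.6, 53.6 and 54.4% of regions (exact sign-flip test of the excess over upstream, two-sided, p = 0.25), and downstream of the protein-coding start in 67.6, 66.7 and 66.3%. A peak covered the noncoding start itself in 76.3, 81.8 and 75.7% of regions.

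**Figure D3:**
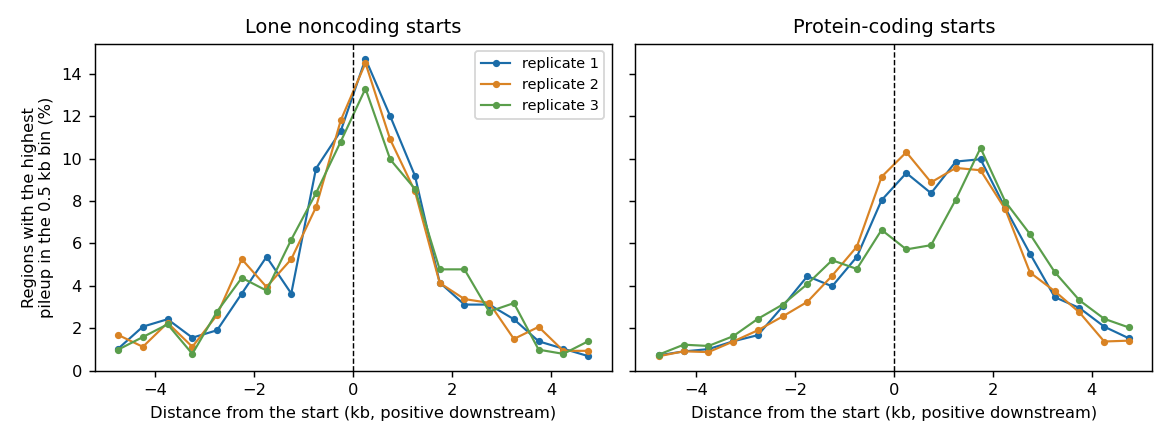
The horizontal axis gives the distance in kb of the highest pileup from the start, positive downstream, and the vertical axis the percent of regions in each 0.5 kb bin. Lines are the 3 replicates, and at lone noncoding starts they rise to a single maximum just downstream of the start. At protein-coding starts they are broader downstream, with the maximum at 1500 to 2000 bp in replicates 1 and 3 (9.97 and 10.5%). Replicate 2 has 9.45% there and 10.3% at 0 to 500 bp. Replicate 3 is lower in the bins around the protein-coding start, with 12.4% of its regions within 500 bp.

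Among the 433 regions in all 3 replicates, the total signal had a Spearman rho of 0.930 between replicates 1 and 2, 0.821 between 1 and 3 and 0.778 between 2 and 3. These are correlations across regions of the same libraries and are given as a description. Replicate 3 departed from the others by GC content. Regions were put in 4 groups of nearly equal size by GC content, and each was given as its share of the listed signal. The log2 ratio of replicate 3 over replicate 2 had a median of 0.60 in the group of lowest GC content (median 44.1%), 0.19 and -0.15 in the next groups, and -0.62 in the group of highest (median 52.0%). For replicate 1 over replicate 2 the medians were -0.12, -0.09, -0.15 and -0.19. Regions without a peak in replicate 3 had a median GC content of 51.7%, and those without a peak in replicate 2 had 44.9%. Which process in the libraries moved with GC content was not tested.

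**Figure D4:**
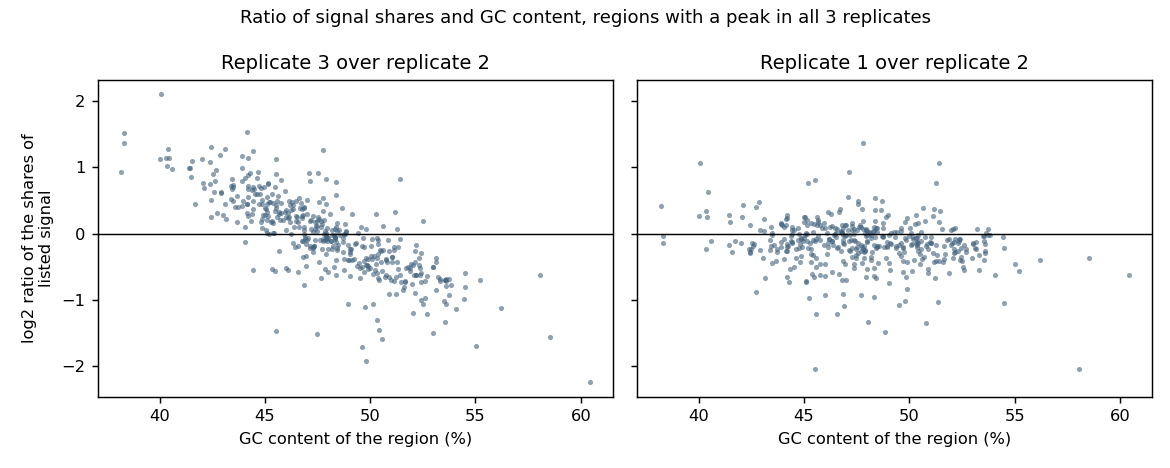
Each point is 1 of the 433 regions with a peak in all 3 replicates, with GC content in percent on the horizontal axis and, on the vertical axis, the log2 ratio of its shares of the listed signal in the named replicates. The ratio of replicate 3 to replicate 2 falls with GC content (rho -0.818), and the ratio of replicate 1 to replicate 2 stays nearly level (rho -0.18).

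The 3 regions with the widest spread of percentiles lay along the same axis in part. Gm49010, an intergenic lincRNA gene 210 kb from Gpc5 with a GC content of 40.1%, stood at 44.8, 0.840 and 84.7 in replicates 1, 2 and 3. Gm13205, antisense to Casz1 with a GC content of 60.4%, stood at 85, 88.6 and 10.9. AC125458.1, antisense to Pyroxd2, stood at 68.2, 81.5 and 2.20, at a GC content of 49.8%. Replicate 3 was the highest at Gm49010 and the lowest at the other two.

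The strongest regions by mean percentile were mostly broad. Gm29123, an antisense gene whose start lies in an intron of the centriole gene Poc1a, ranked first. Its region, chr9:106336663-106361708, had a total signal of 1073713, 1438270 and 675218 in replicates 1, 2 and 3, in pileup units not scaled to depth, and lay 6.92 kb from Dusp7, which encodes a MAP kinase phosphatase. No peak covered the Gm29123 start itself. The widest region, chr6:72667684-72699385 at 31702 bp, belonged to Gm15402, in an intron of Tcf7l1, which encodes a TCF factor of the Wnt pathway. It stood at percentile 99.1, 99.7 and 99.0. A peak covered its start in replicate 2 alone.

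H19 is the imprinted, maternally expressed lincRNA gene beside Igf2. Its region, chr7:142567978-142582016, had a total signal of 519844, 633759 and 280595 and a maximum pileup of 430, 413 and 291 in replicates 1, 2 and 3. By percentile it stood at 99.6, 99.5 and 98.9, so all 3 replicates placed it near the top. The nearest protein-coding start was that of Mrpl23, 34.2 kb away, and that of Igf2 lay 74.0 kb away on the other side.

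Among lone noncoding start regions, 5031425F14Rik had the highest mean pileup, with 862, 794 and 331 in replicates 1, 2 and 3, within chr2:166442908-166452115. H19 followed. The region is intergenic, 130 kb from Prex1 and 287 kb from Sulf2, which encodes a sulfatase of heparan sulfate. The highest pileup lay 389.5, 514.5 and 448.5 bp downstream of the start, the window of which held no CpG. At 9208 bp it was the narrowest of the 10 strongest regions.

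The rest of the 10 had percentiles of at least 97.4 in every replicate. Gm13134 lies in an intron of Prdm16, which encodes a zinc finger regulator of craniofacial development, 31.4 kb from its start, and stood at 99.7, 99.8 and 99.0. Gm49750 lies 24.1 kb from Ephb3, an ephrin receptor gene, and stood at 99.5, 99.3 and 98.8. Its highest pileup was 314, 314 and 308.5 bp downstream of the start. Gm44956, 27.9 kb from the insulin receptor substrate gene Irs2, stood at 98.6, 99.5 and 98.6. Gm45301 lies beside Ppp1r3b, a glycogen-targeting phosphatase subunit gene, and Gm5544 between Sec22b and the receptor gene Notch2. In both of these the percentile was at least 97.5 in every replicate.

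2810442N19Rik and Dnm3os both run antisense within Dnm3, the dynamin 3 gene. The 2810442N19Rik region, 28677 bp wide, stood at 99.6, 97.4 and 99.8, and the Dnm3os region at 98.3, 96.1 and 99.4. Replicate 3 was the highest and replicate 2 the lowest at both, and both regions were low in GC content, at 42.9 and 42.1%. Dnm3os is the host transcript of miR-199a and miR-214, microRNAs of mesenchymal tissues.

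**Figure D5:**
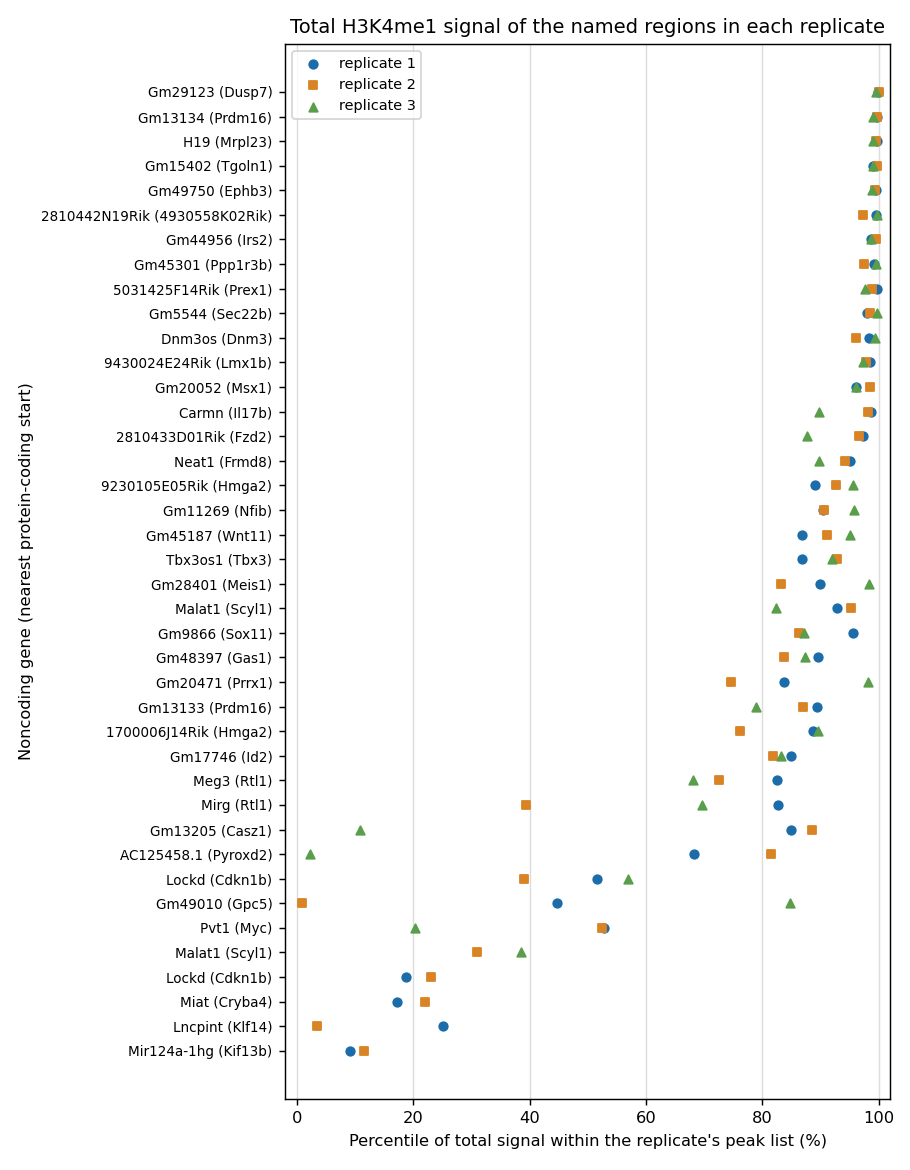
The horizontal axis gives the percentile of total signal within each replicate's list, and the vertical axis 40 named regions by noncoding gene, with the nearest protein-coding start in parentheses, ordered by their mean over the replicates with a peak. Markers are the 3 replicates, a missing marker means no peak, and genes with 2 regions appear on separate lines; the 3 replicates lie close together at the top (Gm29123, 100, 100 and 99.6) and far apart at Gm49010 (44.8, 0.840 and 84.7).

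Of 74 noncoding genes listed for their known names, 38 were lincRNA or antisense genes on chromosomes 1 to 19 and 25 had a lone start. Of these 25, 13 had a lone noncoding start region: Dnm3os, H19, Neat1, Malat1, Tbx3os1, Meg3, Mirg, Pvt1, Lockd, Lncpint, Miat, Mir124a-1hg and Carmn. The other 12, without one, were Kcnq1ot1, Airn, Mir17hg, Mir155hg, Mir9-3hg, Mir124-2hg, Rmst, Pantr1, Dlx6os1, Dlx1as, Hotair and Wt1os. Of these, Dlx6os1 and Dlx1as had a peak within 1 kb of a start in replicates 1 and 2, and Mir17hg and Rmst in replicate 3. The share with a region, 13 of 25, stands against 9.68% of all lone noncoding genes, and the list was drawn up from well-studied genes. A gene counted by any of its starts, and some listed genes have many. Lncpint had 14 lone starts, Meg3 had 11, and Rmst, without a region, had 13. The shares are thus not like for like.

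Neat1 and Malat1, neighbouring nuclear noncoding RNAs on chromosome 19, carried strong regions. The region of Neat1, which Frmd8os shares, stood at percentile 95, 94.2 and 89.8. Malat1 had a first region at 92.9, 95.3 and 82.3, and a second with no peak in replicate 1 and percentiles of 31.0 and 38.6 in replicates 2 and 3. Peaks of the stronger region did not cover the Malat1 start nearest to its middle.

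The imprinted domain of Dlk1 and Dio3 on chromosome 12 had regions at Meg3 and Mirg, maternally expressed noncoding genes. The Meg3 region stood at 82.5, 72.5 and 68.1, with a peak within 1 kb of a Meg3 start in replicate 1 alone. Its highest pileup lay 3842, 4239.5 and 4479.5 bp downstream of the start. The Mirg region stood at 82.7, 39.4 and 69.6, with replicate 2 well below the others. Pvt1, 49.5 kb from Myc, stood at 52.9, 52.4 and 20.3.

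Weaker still were Lncpint, Miat and Mir124a-1hg, the last of these named for the neuronal microRNA miR-124. Mir124a-1hg stood at 9.10 and 11.6 and Miat at 17.2 and 22 in replicates 1 and 2. Lncpint stood at 25.2 and 3.49. None of these 3 genes had a peak in replicate 3, and the GC content was 54.8% at Mir124a-1hg, 54.9% at Miat and 49.3% at Lncpint.

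Marked regions also held microRNA genes. Of the 602 noncoding genes, 9 hosted 26 annotated microRNA hairpins on the same strand, most of them in Mirg. Mir124a-1hg was not among these 9. The share of hosts among all lone noncoding genes was not counted, so the number has no comparison. Of the 26 hairpins, 4 lay inside a region themselves. These were Mir205 in 4631405K08Rik, Mir199a-2 in Dnm3os, Mir675 in H19 and Mir3072 in Mirg. A peak covered the hairpin in all 3 replicates at Mir199a-2 and Mir675, in replicates 1 and 3 at Mir3072 and in replicate 1 alone at Mir205. The mature microRNAs of the first 3 are shown with those of Mir214, the second hairpin of Dnm3os, which lay outside the region. Sequences are from RefSeq on GRCm38, and capitals mark the seed, bases 2 to 8.
mmu-miR-205-5p: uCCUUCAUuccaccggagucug
mmu-miR-205-3p: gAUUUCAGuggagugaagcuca
mmu-miR-199a-5p: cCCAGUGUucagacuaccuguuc
mmu-miR-199a-3p: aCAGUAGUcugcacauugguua
mmu-miR-214-5p: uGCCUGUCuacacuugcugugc
mmu-miR-214-3p: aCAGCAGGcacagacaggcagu
mmu-miR-675-5p: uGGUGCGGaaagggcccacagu
mmu-miR-675-3p: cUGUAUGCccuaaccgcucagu

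No seed was shared among these 8. miR-205 is a microRNA of epithelia, and its host 4631405K08Rik is an intergenic lincRNA gene 137 kb from Camk1g. The region, chr1:193507339-193520829, stood at percentile 93.9, 75 and 88.1. Gm49317, the host of the miR-100, let-7a-2 and miR-125b-1 hairpins, stood at 77.4, 87.8 and 88.9, and its 3 hairpins lay outside the region. These hosts were looked up after the values were seen.

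The protein-coding neighbours of lone noncoding start regions were developmental regulators at nearly the same rate as those of other distal regions. The nearest protein-coding start belonged to 1 of 152 facial transcription factor genes or 1 of 132 signalling genes for 66 of 589 regions (11.2%). For other distal regions the share was 11.6%, a difference of -0.419 percentage points, and the 95% Wilson interval of the first share put it between -2.72 and 2.38. The 66 regions had 50 different neighbours, with 43 regions beside 30 of the transcription factor genes and 23 regions beside 20 of the signalling genes. Their median percentiles were 75, 63.4 and 77.2, against 66.1, 62.7 and 63.8 for regions with other neighbours (mean difference 7.67 ± 6.44 points, SD, n = 3; exact sign-flip test, two-sided, p = 0.25). The difference was 0.7 points in replicate 2.

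Regions beside transcription factor genes had median percentiles of 80.1, 72.6 and 79.6. 9430024E24Rik, 71.1 kb from Lmx1b, a LIM homeobox gene, stood at 98.5, 97.8 and 97.3. Gm20052, 66.9 kb from Msx1, a homeobox gene of tooth and facial mesenchyme, stood at 96.1, 98.4 and 96.2. All 3 replicates were thus high at both. Tbx3os1 shared a region with Gm16063, 40.2 kb from the T-box gene Tbx3, at 86.9, 92.8 and 92.0. Gm11269, in an intron of the nuclear factor gene Nfib and 7.35 kb from one of its starts, stood at 90.5, 90.6 and 95.8. In the window of Gm11269 printed above, 8 CpG dinucleotides were present.

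Hmga2 and Prdm16 each had 2 of the 15 strongest regions beside listed genes. Hmga2, which encodes a chromatin protein of embryonic growth, was the neighbour of 9230105E05Rik at 89.0, 92.6 and 95.6 and of 1700006J14Rik at 88.6, 76.2 and 89.6, both antisense within its body. Prdm16 was the neighbour of Gm13133, at 89.4, 87.0 and 78.9, besides Gm13134. Gm20471 lies in an intron of the mesenchymal homeobox gene Prrx1, with percentiles of 83.7, 74.5 and 98.2, and Gm28401 lies 260 kb from the homeobox gene Meis1, with 89.8, 83.2 and 98.4. Replicate 3 was the highest at these last 2, which had GC contents of 40.3 and 40.4%. Gm9866, 180 kb from Sox11, stood at 95.6, 86.2 and 87.2, and Gm17746, 25.8 kb from Id2, which encodes an inhibitor of basic helix-loop-helix factors, at 84.9, 81.9 and 83.2.

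Regions beside signalling genes had median percentiles of 68.1, 54.4 and 71.7. 2810433D01Rik, 18.2 kb from the Wnt receptor gene Fzd2, stood at 97.3, 96.6 and 87.6. Gm45187, 63.8 kb from the ligand gene Wnt11, stood at 86.8, 91.2 and 95, and its start lay in an exon of Uvrag. Gm48397, 104 kb from Gas1, which encodes a co-receptor for Sonic hedgehog, stood at 89.6, 83.8 and 87.3. In each of these 3 regions the percentile was at least 83.8 in every replicate.

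In all, 486 different protein-coding genes were the nearest neighbour of a region, and 17 of them were the neighbour of at least 3. Uaca had 5, and Cd83, Zfp516 and Zmiz1 had 4 each. The 3 regions beside Irs2 were all strong, with percentiles between 84.4 and 99.5 in every replicate, whereas those beside Cd83 ranged from 2.05 to 77.6. The regions beside Bcl11a, Dapk1, Gas1, Gm26897, Haao, Irs2, Irx3, Msrb3, Mycn, Rpl34, Setd4, Sorl1 and Sox11 numbered 3 for each gene. Those of Bcl11a, a zinc finger gene, were in all 3 replicates and stood between 49.1 and 81.9. Irs2, Cd83 and Bcl11a were picked for these ranges by no rule set in advance. Regions per neighbour were not counted for other distal regions, so these numbers have no comparison.

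Lef1, a gene that the study examined in whisker development, had 2 of these regions as nearest neighbours, and they were chosen for description after their values were seen. The stretch from the start of Rpl34 to the start of Lef1, 380.1 kb on chromosome 3, held 13 regions in at least 2 lists. It held 5 lone noncoding genes, and all 5 had a lone noncoding start region, against 9.68% of lone noncoding genes on chromosomes 1 to 19. The stretch was not a planned comparison and its neighbouring starts are not independent, so no conclusion is drawn from these shares. Gm43349, 185 kb from the Lef1 start, stood at percentile 83.8, 74.3 and 80.3, and 2010110G14Rik, 173 kb from it, at 54.6, 57.4 and 48.9. Gm43522, 25.1 kb from Rpl34, stood at 41.8, 40.5 and 65.5. Gm43351 stood at 51.4 and 20.6 with no peak in replicate 3, and Gm36520 at 9.45 and 10.2 with none in replicate 2. The region of Gm43349 was the strongest of the 5 in every replicate. Also chosen after their values were seen were Gm35154, which shares its region with Gm48065 139 kb from Prdm1, at 59.6, 54.1 and 79.6, and Gm15221, 44.4 kb from Bmp4, at 43.0, 13.8 and 57.1.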

How the data were processed

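H3K4me1 CUT&Tag libraries of 3 E12 whisker pads were analysed. The authors ran SEACR on each library by itself, with no IgG control and a top fraction of 1%. The submitters' processing notes name Bowtie2 2.3, SAMtools 0.1.19, bedtools and SEACR 1.3, with the mm10 build. Each deposited list gives the position, total signal and maximum signal of a peak. Signal is in pileup units that are not scaled to depth, and the lists hold no read numbers. The study gives 1 nominal sequencing depth for all libraries, the depth each reached was not used here, and signal was compared by percentile within a list. The number of replicates, 3, limits the precision.

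Peaks were merged by an overlap of 1 bp or more, and starts were taken from every transcript in GENCODE vM21. A region with several peaks of 1 list took the highest percentile. Scripts ran in Python 3.11.15 with SciPy 1.17.1, and sequence was read from GRCm38.p6 with samtools 1.23.1. The merging and the class comparison were tested on simulated lists with a planted excess of signal. All simulated peaks had the same length, so the link of length with signal and with the rule was not part of that test. Differences of medians were tested by exact sign-flip over 3 replicates, which cannot give p under 0.25. A p of 0.25 is given whenever the differences of all 3 pads share a sign, whatever their spread. Genes named were those of a list of known noncoding genes, the 10 regions of highest mean percentile, the 15 highest beside listed neighbours, the 2 on each side of the 5 kb limit, the widest, and the 3 of widest spread. Exceptions are marked in the text. Members and lists were chosen with earlier results of these data known. Alternatives covered merging, peak thresholds, windows, annotation, signal measures and leaving out each replicate.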

Additional observations from a re-analysis of the deposited data

How the results depend on the processing

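There were 120 alternative values of 8 results, and those that moved or reversed are given here. The excess over other distal regions stayed positive in these settings, from 8.05 to 11.3 points by total signal. It was 7.26 points by total signal divided by length and 6.50 points by maximum signal. Within groups of region length, as given above, it ran from -1.21 to 3.36 points by total signal. The difference in listed neighbours lay on both sides of 0, from -0.963 to 0.158 percentage points, within its counting error. With the stronger 50% of each list, 359 regions met the rule and 6.01% of lone noncoding genes had one. That share was 7.41% with the strongest 10000 peaks of each list, 7.12% when a peak was required in all 3 replicates, 10.9% with a window of 2 kb, and 7.20 to 8.33% with a replicate left out. The difference in percentile of total signal between lone noncoding start regions and coding start regions, 8.32 points with signal divided by length, was reversed, at -0.896 with the stronger 50%, at -0.383 with a peak in all 3 replicates, and ranged from -0.305 to 3.22 with a replicate left out, the lowest without replicate 1. Fewer peaks or lists enter most of these settings by construction, and the cause of the reversal was not tested.

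No paired analysis was possible because the peak lists used here cover none of the second group with the same pad numbers, the IgG samples. This concerns H3K4me1 against IgG, whereas the sign-flip tests compare classes of region within each replicate. Values therefore have no IgG background beside them. Regions are joined across replicates, so a region near a start need not have a peak there in each replicate. Noncoding starts rest on annotation, and no RNA was measured in these samples.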
